A study of Mus musculus with 6 samples.

Results

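The genes described here are the clustered histone genes that tumor-infiltrating regulatory T cells (Tregs) of lung tumor-bearing mice listed in an RNA-Seq table. They were chosen by symbol alone: every row whose name begins with H1f, H1-, H2ac, H2bc, H3c or H4c and a digit, or with Hist1h to Hist4h. The rule found 64 of 15319 listed genes, of which 9 encode the linker histone H1, 16 encode H2A, 16 encode H2B, 12 encode H3 and 11 encode H4. The WT group were Foxp3Yfp-Cre mice and the cKO group Xrcc6flox/flox Foxp3Yfp-Cre mice, so that both groups carried the Cre recombinase with YFP driven by Foxp3 and the deletion was directed to Foxp3-expressing cells. Xrcc6 encodes Ku70, which binds broken DNA ends. Mice of both groups were 8 to 10 weeks old when cells of LLC, a mouse lung carcinoma line, were given by tail vein, and the Tregs were taken on day 21. Each group had 3 libraries, and no label says that they came from separate animals, so p-values measure the spread between these libraries only.

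Replication-dependent histone genes supply the nucleosome proteins that a cell needs while it copies its DNA. They stand in clusters, most lack introns, and their mRNAs end in a conserved stem-loop bound by the protein SLBP instead of a poly(A) tail, although some of them also give polyadenylated transcripts. Core histones H2A, H2B, H3 and H4 form the nucleosome, and linker H1 binds the DNA between nucleosomes. Replacement variants such as H2A.Z and H3.3 are also made outside S phase, from genes outside the clusters with ordinary polyadenylated mRNAs.

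The annotation bore out the name for most but not all of the genes. On GRCm38, 51 of the 64 lay on chromosome 13 and 10 on chromosome 3, in gene clusters, and 3 lay outside any cluster. These 3 were H1f0, a replacement linker histone of quiescent cells (chr15:79028450-79030504), H1f8, the oocyte linker histone (chr6:115944938-115950236), and H1f10 (chr6:87980421-87981637). H1f6, the testis linker histone, matched the rule and lies in the chromosome 13 cluster. The stem-loop, 16 bases long and searched on the sense strand, was found in the annotated transcripts of 42 of the 64 genes and in those of 86 of all 55450 annotated genes, or 0.155%. It took 8 different forms among the 42 genes, of which the most frequent was found in 24 genes. The following stretches are shown because they show the most frequent form in H2A, H1, H3 and H2B genes, the same form in the copies H3c14 and H3c15, and other forms in an H3 and an H4 gene, with the stem-loop in capitals.
H2ac18 (chr3:96246027-96246052, + strand): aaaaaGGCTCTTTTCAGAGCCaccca
Hist1h2ao (chr13:21810893-21810918, + strand): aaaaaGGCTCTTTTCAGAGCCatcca
H1f2 (chr13:23739507-23739532, + strand): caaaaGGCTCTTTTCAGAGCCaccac
H3c14 (chr3:96247322-96247347, + strand): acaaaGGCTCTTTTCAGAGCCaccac
H3c15 (chr3:96238480-96238505, - strand): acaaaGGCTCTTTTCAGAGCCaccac
H3c6 (chr13:23561898-23561923, - strand): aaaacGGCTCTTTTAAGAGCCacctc
H4c4 (chr13:23581945-23581970, + strand): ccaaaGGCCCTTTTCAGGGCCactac
H2bc8 (chr13:23571838-23571863, + strand): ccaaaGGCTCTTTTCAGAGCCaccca
The stretches of H3c14 and H3c15 were the same letter for letter. H1f0, H1f8, H1f10, H2bc4, H2bc18 and H2bc21 were among the 22 genes whose models held no match. A short model, such as the 381 bases of H2bc18, may end before the stem-loop. No match is thus a trait of the annotated model and does not tell how the mRNA ends.

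The promoters shared letters as well. RefSeq promoters of GRCm38.p6, from 250 bases before to 50 bases after the start site, were matched for 51 of the 64 genes. The TATA sequence TATAAA, searched on both strands, stood in 54.9% of them against 14.2% of all 27025 promoters, and CCAAT stood in 86.3% against 37.9%. The octamer ATGCAAAT, the sequence that POU factors such as Oct-1 bind, was in 19.6% of the histone promoters and in 1.75% of all promoters. Its 10 histone matches were 5 of 13 H2A promoters and 5 of 11 H2B promoters, and it was in none of the 9 H1, 10 H3 and 8 H4 promoters. Some H2A and H2B genes stand head to head and share one octamer, which is shown for 2 such pairs on the strand of each gene with the octamer or its complement in capitals.
H2bc8 (chr13:23571330-23571359, + strand): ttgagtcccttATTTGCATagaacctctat
H2ac8 (chr13:23571330-23571359, - strand): atagaggttctATGCAAATaagggactcaa
H2bc12 (chr13:22035780-22035809, + strand): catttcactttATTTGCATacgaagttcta
H2ac12 (chr13:22035780-22035809, - strand): tagaacttcgtATGCAAATaaagtgaaatg

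The depth was similar in all libraries, with total counts of 19032620 to 21707706 in WT and of 20762042 to 23159815 in cKO. Values are CPM, counts per 1000000 counts of the library total after TMM scaling, and 3 counts were worth 0.133 to 0.156 CPM. Where 3 values are given for a group they follow the order of its replicates 1 to 3. The targeted Xrcc6 was higher in each WT library (20.9, 63.1 and 23.8 CPM) than in any cKO library (5.24, 3.51 and 4.18 CPM). WT replicate 2 stood apart, with 11513 genes at 1 count or more against 14442 to 14737 in the other libraries. Its largest correlation with another library was 0.930, on log2(CPM + 0.5) across genes, where every other library reached at least 0.991. Of the sorted-cell markers, Foxp3 was at 150 to 241 CPM in WT and 189 to 282 CPM in cKO, and Il2ra was at 242 to 306 and 191 to 323 CPM. Markers of other cells were present in every library: the 8 macrophage and dendritic cell genes summed to 180 to 690 CPM in WT and 234 to 1014 CPM in cKO, and the 6 CD8 T and NK cell genes to 86.0 to 753 and 291 to 478 CPM. The 6 B and plasma cell genes summed to 14.96 to 65.0 CPM in WT and 12.5 to 52.1 CPM in cKO, the 7 lung epithelium and LLC genes to 36.8 to 100.6 and 39.4 to 68.6 CPM, the 6 stromal and endothelial genes to 61.6 to 82.1 and 71.0 to 96.4 CPM, and the 8 neutrophil genes to 30.2 to 49.5 and 44.4 to 48.7 CPM. The part of these cells in the histone values was not tested. In such sorted bulk samples fewer cycling cells and less histone RNA per cell cannot be told apart.

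Counts were spread unevenly over the histone genes, and a replacement linker histone took the most, on a scale that also grows with gene length. H1f0 was at 158, 163 and 117 CPM in WT and at 114, 119 and 97.8 CPM in cKO, and it held 28.4% of the counts of all 64 genes. H2ac18, an H2A gene of the chromosome 3 cluster, followed at a mean of 45.1 CPM over the 6 libraries, and then H1f2 at 40.8 CPM, Hist1h2ao at 36.4 CPM, H1f4 at 33.4 CPM, Hist1h2ap at 29.4 CPM and H2bc4 at 22.7 CPM. These 7 were the genes with a mean of at least 20 CPM, while 36 of the 64 reached 1 CPM and 58 reached 0.2 CPM. The testis gene H1f6 had the lowest mean, 0.0315 CPM, with values of at most 0.0890 CPM.

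**Figure D1:**
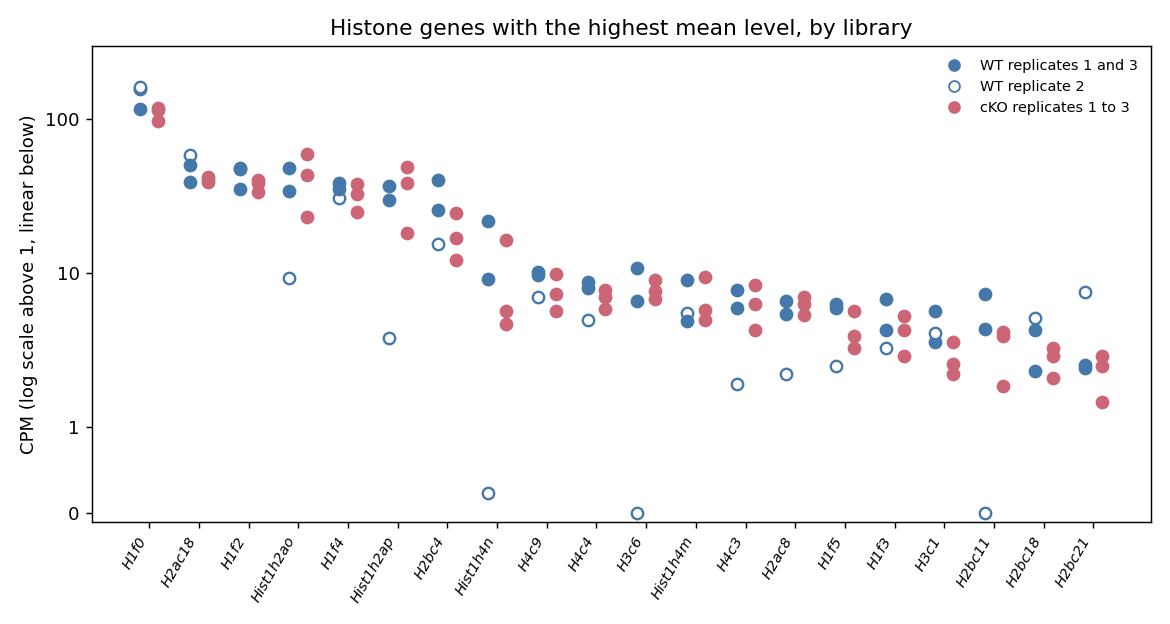
CPM of the 20 histone genes with the highest mean, on an axis that is linear below 1 and logarithmic above, with WT on the left and cKO on the right of each gene and 1 point per library. H1f0 lies highest at 97.8 to 163 CPM, and the open points of WT replicate 2 fall far below the other libraries for Hist1h2ao, Hist1h2ap, Hist1h4n, H3c6 and H2bc11.

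Levels can be set side by side only per length of gene model, and there the order changed. H2ac18 came first at 77.0 CPM per kb of exon, as a mean over the 6 libraries, then Hist1h2ao at 75.7, although its libraries ranged from 9.31 to 59.4 CPM, then H1f0 at 62.4, Hist1h2ap at 61.04 and H1f2 at 26.1 CPM per kb. WT replicate 2 set the order at the top, since without it the WT means were 86.0 CPM per kb for Hist1h2ao, 76.5 for H2ac18, 69.8 for Hist1h2ap and 67.0 for H1f0, and in cKO Hist1h2ao was at 87.7 and H2ac18 at 69.8 CPM per kb. The 20 highest genes by CPM and by CPM per kb shared 18 names. H1f3 moved down to 0.604 CPM per kb, with a model of 7425 bases that ran 4884 bases past the stem-loop. The annotation behind the counts is not given, so its gene lengths may differ from those used here. Among the 61 clustered genes, 26 had models ending within 200 bases of the stem-loop, with a median of 2.50 CPM per kb and a range of 0.0345 to 77.0. The 16 whose models went on for 200 bases or more had a median of 0.734 CPM per kb (0.0810 to 26.1), and the 19 with no match had a median of 1.24 CPM per kb (0.250 to 19.6). Long models lower this level by their length, so the 3 classes are a description of annotated genes and not of mRNA ends, which the counts do not show.

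**Figure D2:**
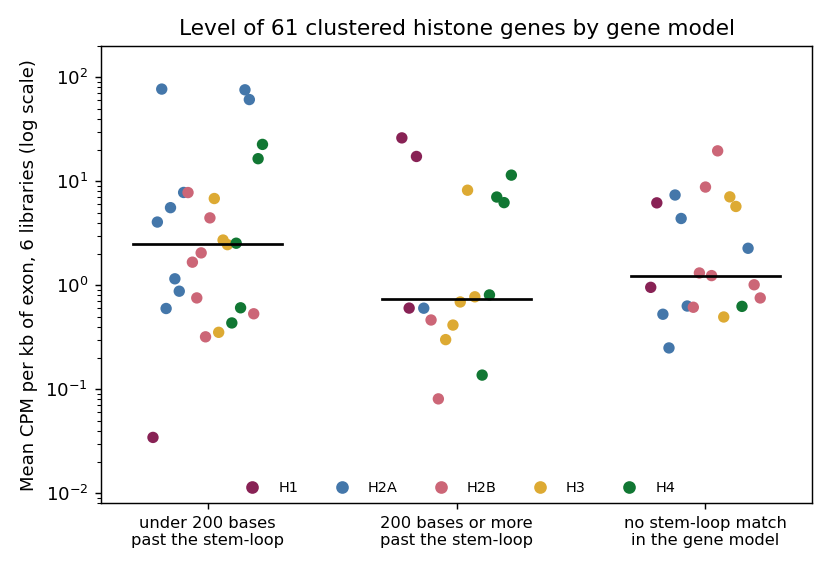
Mean CPM per kb of exon over the 6 libraries, on a log axis, for the 61 clustered histone genes by how far the gene model runs past the stem-loop, with 1 point per gene coloured by histone type and a line at each median. The medians were 2.50, 0.734 and 1.24 CPM per kb, and each class spans more than the distance between them.

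Many members cannot be counted apart. A window of 150 bases, the read length, was shared letter for letter with another member by 47 of the 64 genes, and 20 genes shared at least 50% of their windows. Estimated counts that were not whole, as arise when a read is divided among genes, were found for 55 of the 64 genes (85.9%) against 26.9% of all listed genes. Hist1h2bq and Hist1h2br, H2B genes on chromosome 13, shared 1861 windows, 92.4% of those of Hist1h2bq. In WT replicate 2, cKO replicate 1 and cKO replicate 3 the table gave them the same count to within 0.005, and in WT replicate 1 Hist1h2bq held 85.1% of their sum. Hist1h4m and Hist1h4n, H4 genes with 217 shared windows, were divided less evenly, and Hist1h4m held from 18.3% to 95.8% of their summed counts depending on the library. H2ac18, the first by CPM per kb, shared 379 windows with its copy H2ac19, 86.7% of its own and 100% of those of H2ac19. It held 98.1% to 100% of their summed counts. Values of single copies are therefore uncertain, and sums over copies and over types are given beside them.

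Each type was then summed, which keeps the reads that its copies share together, but not reads shared with genes outside the sum. The H2B gene H2bc18 shared 100% of its windows with annotated genes that are not members, and H2bc6 shared 347 with H1f4. The H2B genes were the type with the largest difference between groups. Their sum was 62.7, 41.3 and 58.3 CPM in WT and 45.1, 36.4 and 26.4 CPM in cKO. The groups overlapped through WT replicate 2, which was below cKO replicate 1. The means were 54.1 ± 11.3 CPM in WT and 35.97 ± 9.35 CPM in cKO (SD, n = 3), a log2 fold change of -0.59 (SE 0.25), with p of 0.0481 before and 0.984 after adjustment by edgeR's quasi-likelihood test. The same rule called 0.871% of the 15264 rows tested lower in cKO, and H2B was 1 of the 4 type sums. Without WT replicate 2 no value overlapped, and the log2 fold change was -0.75 (SE 0.20, adjusted p = 0.997, edgeR), with an unadjusted p of 0.00454, where 1.49% of all rows were called lower. Leaving out WT replicate 1 or 3 or cKO replicate 2 or 3 from the 6 libraries gave unadjusted p of 0.137, 0.119, 0.1 and 0.156. A large part of the H2B sum was 1 gene, H2bc4, with a mean of 22.67 of 45.05 CPM over the 6 libraries. Its means were 27.38 CPM in WT and 17.96 CPM in cKO. Over all libraries 13 of the 16 H2B genes had a log2 fold change under 0 and 3 had one above, with a median of -0.56. Over all genes tested 45.5% were under 0, with a median of 0.04. The H2B sum without H2bc4 was not tested.

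The other core types overlapped between the groups. H4 genes summed to 46.5, 22.5 and 56.8 CPM in WT and to 50.3, 38.7 and 29.1 CPM in cKO, with a log2 fold change of -0.09 (SE 0.36) over all libraries and -0.39 (SE 0.21, adjusted p = 0.997, edgeR) without WT replicate 2. H3 genes summed to 24.5, 13.1 and 30.7 CPM in WT and to 21.1, 25.5 and 20.1 CPM in cKO, with log2 fold changes of -0.03 (SE 0.32) and -0.31 (SE 0.17, adjusted p = 0.997, edgeR). H2A genes summed to 147, 87.2 and 140 CPM in WT and to 99.6, 171 and 137 CPM in cKO, with log2 fold changes of 0.12 (SE 0.26) and -0.08 (SE 0.22). For H2A, H3 and H4 the lowest library of all was WT replicate 2. The linker genes H1f1 to H1f5 summed to 88.9 ± 7.80 CPM in WT and 79.1 ± 11.7 CPM in cKO (SD, n = 3), with overlapping values of 84.6, 84.2 and 97.9 CPM in WT and 80.4, 90.1 and 66.9 CPM in cKO.

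**Figure D3:**
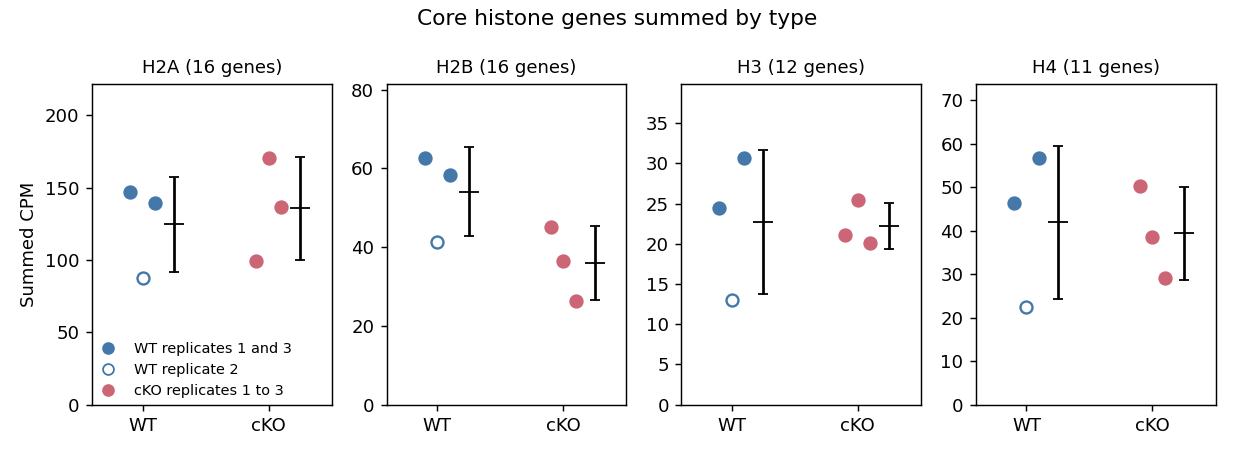
Summed CPM of the clustered core histone genes of each type, with 1 point per library and the mean ± SD of 3 libraries beside them; each axis starts at 0. For H2B the 3 cKO libraries lie at 26.4 to 45.1 CPM and WT replicates 1 and 3 at 62.7 and 58.3 CPM, with WT replicate 2, the open point, at 41.3 CPM.

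As single genes, none of the 64 passed an adjusted p of 0.05 in edgeR, where 0% of the 15315 genes tested did, and none passed in DESeq2. At an unadjusted p under 0.05, edgeR called 2 members higher in cKO, H3c14 and H1f8, where 0.94% of all genes were called higher. It called 1 lower, H3c15, where 0.868% were called lower, and DESeq2 called 2 higher (0.62% of all genes) and 5 lower (1.38% of all genes). The groups did not overlap for the same 2 genes upwards (5.01% of all genes) and for 6 genes downwards (3.23% of all genes), which were H2ac13, H2bc8, H3c15, H4c14, H4c2 and Hist1h2bq. Of the 64 log2 fold changes 41 were under 0, as were 45.5% over all genes. Their median was -0.21, beside 0.04 over all genes tested. Over all 64 genes this direction depended on single libraries: the median was -0.06 when WT replicate 1 was left out, -0.05 when cKO replicate 3 was, and 0.11 when WT replicate 3 was. For the 36 members with a mean of at least 1 CPM the median was -0.29, beside 0.01 over all genes at that level. With 1 library left out the median of these 36 ran from -0.45 to -0.12.

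Without WT replicate 2 more of the members were lower in cKO. The log2 fold change was then under 0 for 53 of the 64 genes, against 51.4% of all genes, and the median was -0.39, beside -0.01 over all 15302 genes tested. Among the 36 genes with a mean of at least 1 CPM it was under 0 for 33, with a median of -0.39. Of all 11565 genes at that level 5968 were under 0, with a median of -0.01. By type, 15 of 16 H2B, 11 of 12 H3, 10 of 11 H4, 10 of 16 H2A and 7 of 9 H1 genes had a log2 fold change under 0. The groups did not overlap for 20 members downwards, where 7.53% of all genes did the same, and for 2 upwards, where 8.48% did. No member passed an adjusted p of 0.05 in edgeR (0.00654% of all genes, which was Xrcc6). At an unadjusted p under 0.05, 5 were lower (1.5% of all genes) and 2 were higher (1.52% of all genes). Members share reads and a group of 2 libraries is compared with 3, so these counts are not of independent genes.

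**Figure D4:**
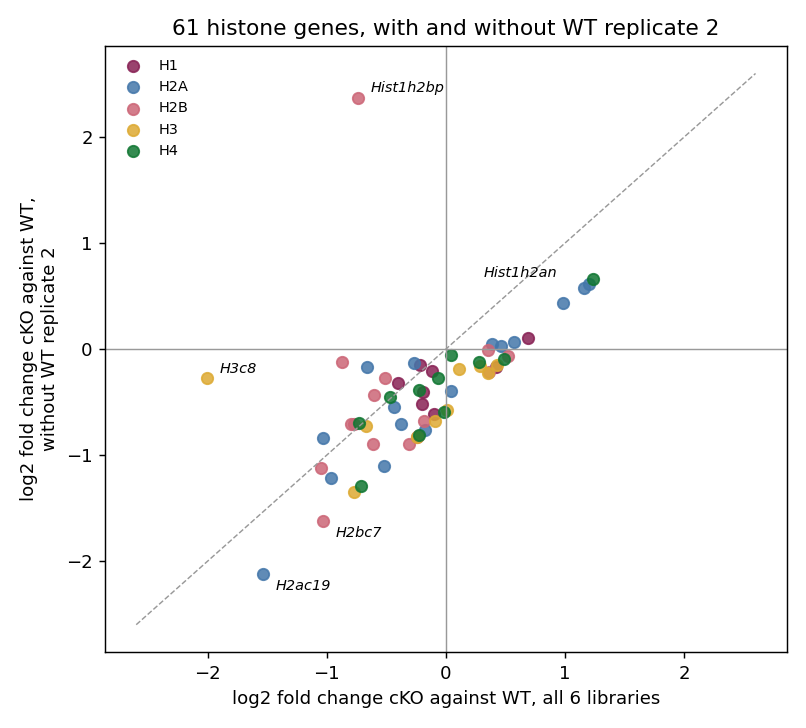
Log2 fold change of cKO against WT from all 6 libraries on the x axis and without WT replicate 2 on the y axis, for 61 histone genes coloured by type. H3c14, H3c15 and H1f8, which were at or under 3 counts in every library of 1 group, were left out by name. H2ac12, H4c11 and H1f6, also at or under 3 rounded counts in every library of a group, are plotted. Without WT replicate 2, 53 of all 64 genes lie below 0, against 41 with it, and most points fall below the dashed line of equal values.

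WT replicate 2 was also the library in which histone genes were missing. It listed 27 of the 64 at 0 counts (42.2%), where 24.8% of all genes were at 0, while the other libraries listed 3 to 5 of them at 0. These include H3c6, an H3 gene with 6.64 and 10.9 CPM in the other WT libraries and 6.85 to 9.08 CPM in cKO, and H2bc11, with 4.35 and 7.35 CPM in the other WT libraries. At like levels the histone genes were not set apart throughout. Of genes at 0.2 to 1 CPM on average in the other 5 libraries, 16 of 20 histone genes and 64.6% of all genes were at 0 there, and at 1 to 5 CPM, 6 of 22 histone genes and 37.9% of all genes. At 5 CPM or more, 1 of 15 histone genes and 2.33% of all genes were at 0 there. A count of 0 in that library allows up to 3 counts, or 0.141 CPM, by counting error alone. It was not uniformly low, since H2bc21, an H2B gene with no stem-loop match, had 7.61 CPM there and 2.44 and 2.55 CPM in the other WT libraries, and H3c8 was at 5.03 CPM there and at 0.267 to 0.817 CPM elsewhere.

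Of the 3 H2A genes with the most counts, 2 varied widely between libraries. Hist1h2ao was at 48.1, 9.31 and 34.4 CPM in WT and 23.4, 59.4 and 43.5 CPM in cKO. Hist1h2ap, with which it shares 303 windows, was at 37.2, 3.81 and 30.1 CPM in WT and at 18.2, 48.9 and 38.4 CPM in cKO. Both genes were lowest in WT replicate 2 and highest in cKO replicate 2, so that the groups overlapped, and their sum with the copy H2ac11 had a log2 fold change of 0.47 (SE 0.61) over all libraries and 0.02 (SE 0.33) without WT replicate 2. H2ac18, on chromosome 3, was steadier, at 39.3, 58.3 and 50.3 CPM in WT and at 39.2, 42.4 and 41.0 CPM in cKO. Its log2 fold change was -0.27 (SE 0.18, adjusted p = 0.984, edgeR). The sum with its copy H2ac19 was 39.8, 58.3 and 51.3 CPM in WT and 39.2, 42.9 and 41.05 CPM in cKO. That sum had a log2 fold change of -0.28 (SE 0.18, adjusted p = 0.984, edgeR). H2ac13 was at 3.30, 4.84 and 3.54 CPM in WT and at 1.76, 2.35 and 1.60 CPM in cKO, and its WT and cKO values did not overlap. Its log2 fold change was -1.03 (SE 0.54) and, without WT replicate 2, -0.84 (SE 0.34), at which the unadjusted p was 0.0357, with adjusted p of 0.984 and 0.997 in edgeR. Summed with the 6 copies that share its reads it was 0.03 (SE 0.34), the 7 genes together being at 10.5 ± 2.98 CPM in WT and 10.8 ± 1.60 CPM in cKO (SD, n = 3). H2ac11 was at 3.30, 1.65 and 2.87 CPM in WT and at 1.86, 1.25 and 0.889 CPM in cKO, and its log2 fold change was -0.96 (SE 0.66) and, without WT replicate 2, -1.21 (SE 0.40, adjusted p = 0.997, edgeR), with an unadjusted p of 0.0152. H2ac8 was at 6.60, 2.21 and 5.47 CPM in WT and 6.36, 7.01 and 5.34 CPM in cKO.

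Among the H2B genes H2bc4 had the highest level, 19.6 CPM per kb. Its model on chromosome 13, from 23684199 to 23692908, is spliced and holds no stem-loop match. It was at 40.7, 15.5 and 25.9 CPM in WT and 24.6, 17.0 and 12.3 CPM in cKO. WT replicate 2 lay among the cKO values and the other WT libraries above them. The log2 fold change was -0.61 (SE 0.40) over all libraries and -0.90 (SE 0.28, an unadjusted p of 0.0113) without WT replicate 2, with adjusted p of 0.984 and 0.997 in edgeR. Hist1h2bq was at 2.68, 2.44 and 3.13 CPM in WT and at 1.25, 1.44 and 1.29 CPM in cKO, and the 3 cKO values all lay below the lowest WT value. Its log2 fold change was -1.05 (SE 0.58) and -1.12 (SE 0.35, an unadjusted p of 0.0112) without WT replicate 2, neither with an adjusted p under 0.05 in edgeR. Summed with its copies Hist1h2br and H2bc12 it was at 4.49, 4.89 and 7.50 CPM in WT and 3.29, 3.65 and 3.16 CPM in cKO, still without overlap, with a log2 fold change of -0.74 (SE 0.47) and, without WT replicate 2, -0.83 (SE 0.30, adjusted p = 0.998, edgeR). H2bc8, whose octamer is shown above, was at 3.20, 3.76 and 3.44 CPM in WT and at 2.23, 1.78 and 2.09 CPM in cKO, a log2 fold change of -0.77 (SE 0.53, adjusted p = 0.984, edgeR). The largest value against the direction of the other H2B genes without WT replicate 2 was 2.37 (SE 1.29) for Hist1h2bp, a gene with 0.0956 and 0 CPM in those WT libraries and no more than 0.384 CPM in cKO. H2bc18 was at 2.34, 5.17 and 4.33 CPM in WT and 2.92, 3.27 and 2.09 CPM in cKO, and H2bc11 was at 3.90, 4.18 and 1.87 CPM in cKO.

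Among the H3 genes, H3c14 and H3c15 exchanged places between the groups. H3c14 (chr3:96246685-96248509, + strand) had 0 counts in each WT library and 22.9, 24.8 and 23.02 estimated counts in cKO. H3c15 (chr3:96238108-96239127, - strand) had 9.48, 35.6 and 8.11 estimated counts in WT and 0 in each cKO library. By group means, against a limit of 3 counts per library, H3c14 was at least 7.47-fold higher and H3c15 at least 6.09-fold lower in cKO. The WT mean of H3c15 was 0.846 CPM, and 0.424 CPM without WT replicate 2, so its fold is smaller without that library. The unadjusted p was 0.00155 for H3c14 and 0.00507 for H3c15, with an adjusted p of 0.984 for both in edgeR, and DESeq2 gave H3c14 an adjusted p of 0.132 over all libraries and 0.0681 without WT replicate 2. The genes share 517 windows of 150 bases, 59.4% of those of H3c15 and 30.8% of those of H3c14, and the annotated gene Gm20634 overlaps H3c14 on the same strand. Their sum was 0.430, 1.69 and 0.417 CPM in WT and 1.07, 1.20 and 1.02 CPM in cKO, which overlapped only through WT replicate 2. With the copy H3c13 it was 2.77, 3.15 and 4.69 CPM in WT and 3.90, 4.75 and 3.34 CPM in cKO, a log2 fold change of 0.18 (SE 0.50, adjusted p = 0.984, edgeR). Whether the exchange comes from the cells or from how shared reads were divided was not tested. Of the other H3 genes, H3c1 was at 3.59, 4.14 and 5.73 CPM in WT and 2.23, 2.59 and 3.60 CPM in cKO, where WT replicate 1 was just below cKO replicate 3.

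**Figure D5:**
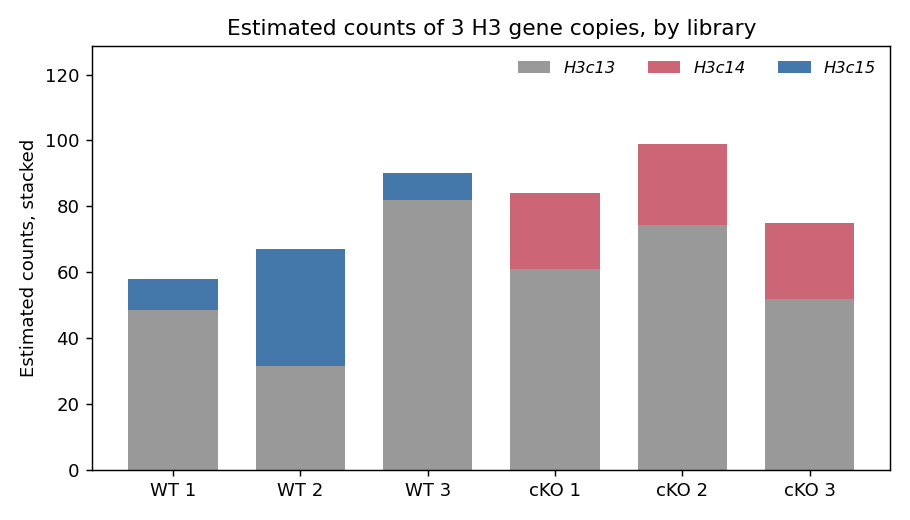
Estimated counts of H3c13, H3c14 and H3c15, stacked, in each library. H3c15 has counts in the 3 WT libraries and 0 in the 3 cKO libraries, H3c14 the opposite, while H3c13 is present in all 6.

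Among the H4 genes, Hist1h4n was at 9.27, 0.235 and 21.99 CPM in WT and at 16.4, 5.72 and 4.71 CPM in cKO, a range within each group that reached past the other group. Summed with its copy Hist1h4m, which was at 9.13, 5.55 and 4.90 CPM in WT and at 4.97, 9.42 and 5.83 CPM in cKO, it had a log2 fold change of -0.12 (SE 0.54) and, without WT replicate 2, -0.54 (SE 0.28, adjusted p = 0.998, edgeR). H4c9 was at 9.75, 7.003 and 10.2 CPM in WT and 9.98, 7.35 and 5.69 CPM in cKO, H4c4 at 8.75, 4.98 and 8.03 CPM and 7.84, 7.06 and 5.92 CPM, and H4c3 at 5.93, 1.93 and 7.82 CPM and 8.44, 6.29 and 4.31 CPM. All 3 overlapped between the groups. H4c2 and H4c14 did not overlap, at 1.05 to 1.41 CPM and 1.46 to 1.58 CPM in WT and at 0.667 to 0.865 CPM and 0.913 to 1.25 CPM in cKO, but their unadjusted p was 0.314 and 0.484 in edgeR (adjusted p of 0.984 for both).

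The linker histones of the clusters overlapped between the groups over the 6 libraries. H1f2 was at 35.5, 47.7 and 48.2 CPM in WT and at 38.8, 40.4 and 34.02 CPM in cKO, a log2 fold change of -0.21 (SE 0.18). H1f4 was at 38.4, 30.7 and 35.3 CPM in WT and 33.0, 38.0 and 24.99 CPM in cKO, a log2 fold change of -0.12 (SE 0.21). H1f3 and H1f5 had means of 4.48 and 4.61 CPM and log2 fold changes of -0.20 (SE 0.52) and -0.20 (SE 0.55). Without WT replicate 2 these were -0.41 (SE 0.34) for H1f3 and -0.51 (SE 0.30) for H1f5, whose groups then did not overlap (adjusted p = 0.997 for both, edgeR). H1f1 was at 0.430, 0 and 1.20 CPM in WT and 0.974, 0.624 and 1.02 CPM in cKO, a log2 fold change of 0.69 (SE 1.28) and, without WT replicate 2, 0.11 (SE 0.60). Outside the clusters, H1f0 had a log2 fold change of -0.41 (SE 0.17, p of 0.0504 before and 0.984 after adjustment in edgeR), where cKO replicate 2, at 119 CPM, lay above WT replicate 3, at 117 CPM. Without WT replicate 2 it was -0.32 (SE 0.17). H1f10 was at 0.621, 0 and 0.625 CPM in WT and 0.603, 0.577 and 0.489 CPM in cKO.

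The oocyte linker gene H1f8 had 1, 0 and 1 counts in WT and 6, 12 and 7 counts in cKO. It was at least 2.65-fold higher in cKO against a limit of 3 counts per library, with p of 0.0211 before and 0.984 after adjustment in edgeR. The 5 listed genes of 8 oocyte markers moved with it, summing to 0 to 0.469 CPM in WT and 1.49 to 2.45 CPM in cKO, of which Zp1, Zp2, Zp3 and Oosp1 were at 0 counts in every WT library. The part of such transcripts in the H1f8 value was not tested. The 3 listed genes of 8 testis and sperm markers summed to 0 to 4.01 CPM in WT and 1.29 to 2.51 CPM in cKO, and H1f6, the testis linker gene, was at 0.0478, 0 and 0.0521 CPM in WT and at 0, 0 and 0.0890 CPM in cKO.

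Genes that work with the histone genes were compared through lists. Of 28 genes for histone mRNA synthesis and processing none passed an unadjusted p of 0.05 in edgeR in either direction, and their median log2 fold change was 0.10. Over all genes 0.94% were called higher and 0.868% lower by that rule. Slbp, which binds the stem-loop, was at 73.0, 80.5 and 62.5 CPM in WT and 81.3, 73.9 and 62.4 CPM in cKO. Of 11 genes for replacement variants none passed either, with a median of 0.04. H2afz (H2A.Z) was at 649 to 1125 CPM in WT and 757 to 1014 CPM in cKO, and the H3.3 genes H3f3a and H3f3b were at 197 to 470 and 1636 to 3290 CPM in WT and at 367 to 514 and 1688 to 1937 CPM in cKO. Of 24 histone chaperones, Ubn2, which deposits H3.3, was the 1 gene at an unadjusted p under 0.05 (0.868% of all genes were called lower). It was at 43.4, 101.2 and 61.1 CPM in WT and 42.1, 39.8 and 39.7 CPM in cKO (adjusted p = 0.984, edgeR). Nasp, a chaperone of H3 and H4, was at 23.4 to 39.4 CPM in WT and 37.8 to 44.6 CPM in cKO.

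Proliferation genes were measured beside the histone genes because most histone mRNA is made in S phase. Of 42 S phase genes 2 were lower in edgeR at an unadjusted p under 0.05 (0.868% of all genes) and none higher (0.94% of all genes). Their median log2 fold change was 0.01, or -0.08 without WT replicate 2. The 2 were E2f1, a transcription factor of S phase entry, at 14.8, 33.1 and 9.22 CPM in WT and 9.56, 7.40 and 7.38 CPM in cKO, and Pole, the catalytic subunit of a replicative polymerase, at 4.59, 15.1 and 5.73 CPM in WT and 2.78, 2.83 and 3.42 CPM in cKO. Of 20 mitosis genes Cdk1 was lower at an unadjusted p of 0.0472 (adjusted p = 0.984, edgeR) and none was higher, beside the same shares of all genes. Pcna was at 119 to 176 CPM in WT and 111 to 122 CPM in cKO, Mcm5 at 60.6 to 93.9 and 64.6 to 86.6 CPM, and Rrm2 at 25.6 to 31.0 and 22.5 to 27.7 CPM. Mki67 was at 60.5, 18.4 and 52.3 CPM in WT and 51.2, 51.2 and 49.6 CPM in cKO, and Top2a at 42.8 to 55.9 and 45.0 to 54.0 CPM. Without WT replicate 2 the log2 fold change was -0.16 (SE 0.13) for Mki67 and 0.00 (SE 0.15) for Top2a, beside the -0.75 (SE 0.20) of the H2B sum. In the same fit it was -0.77 (SE 0.28) for Pole, -0.57 (SE 0.24) for E2f1 and -0.49 (SE 0.22) for Cdk1. For Pcna it was -0.10 (SE 0.13), for Mcm5 -0.10 (SE 0.20) and for Rrm2 -0.05 (SE 0.14). The difference between these values was not tested.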

How the data were processed

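RNA-Seq was made from sorted tumor-infiltrating Tregs of 3 WT and 3 cKO samples, with a SMARTER mRNA-Seq kit and 150-base paired-end reads on a BGI-Seq500. The authors used GRCm38 and deposited, for each gene symbol, estimated counts that were not normalized (expected counts, not whole in 21.6% of values). The submitters' processing notes name Bowtie2 (version 2.3.4.3) and RSEM (version 1.3.1). How the kit primed RNA, the strand setting and the annotation are not given in the sources used here. An mRNA without a poly(A) tail may be captured in part only. None of the genes searched as small RNAs without such a tail was listed. Since the annotation is not given, their absence does not tell what was captured.

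Estimated counts were rounded and tested with edgeR (version 4.0.16), limma (version 3.58.1) and R (version 4.3.3): TMM scaling, quasi-likelihood test, cKO compared with WT in 6 libraries, genes with at least 1 count, and Benjamini-Hochberg adjustment over all 15315 genes. SE are log2 fold changes divided by the root of the F statistic. Type sums and copy sums replaced their members in a fit across all rows. Copies were members of a type of which 1 had at least 50% of its 150-base windows in the other. CPM are on TMM-scaled totals, and limits of 3 counts cover counting error only. Gene models, windows and stem-loops came from GENCODE vM21 of GRCm38, in which 9 members matched by symbol and 55 by an older symbol and position. Promoters came from RefSeq. Python (version 3.11.15) was used for summaries. The scripts were tested on simulated data.

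The members and lists were chosen with earlier results of these data known. Named members were the 20 with the highest mean CPM, every member at an unadjusted p under 0.05 with or without WT replicate 2, and germ cell and replacement members. Named besides were Xrcc6, Slbp, H2afz, H3f3b, H3f3a, Nasp, Mki67, Top2a, Pcna, Mcm5, Rrm2, Foxp3, Il2ra and the members of the processing, variant, chaperone, S phase and mitosis lists at an unadjusted p under 0.05, which are more than the rule's adjusted p asked for. H2bc8, H2bc12, H2ac12, Hist1h2br, Hist1h2bp, H3c8, H3c13, H4c2 and H4c14 were named after their values were seen. The alternatives were DESeq2 (version 1.42.0) with and without WT replicate 2, scaling by library size alone or by median of ratios, quality weights per library (limma's voomWithQualityWeights), a block for the replicate number, filterByExpr with a minimum count of 10, robust dispersion and each library left out. Sums of copies, and type sums without WT replicate 2 and a cKO library, were chosen after seeing the data.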

Additional observations from a re-analysis of the deposited data

How the results depend on the processing

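No member passed an adjusted p of 0.05 under any of the 14 alternatives or in the fit reported. At an unadjusted p under 0.05 the count of members lower in cKO, 1 in the fit reported, was 5 with DESeq2 (1.38% of all genes), 5 with DESeq2 without WT replicate 2 (1.13%), 2 with library size only (0.96%), 6 with voomWithQualityWeights (1.83%), and 1 to 5 with 1 library left out (0.131% to 3.93%). It was 0 with filterByExpr (0.818%), which kept 47 of the 64 members and tested neither H3c15 nor H1f8. The count higher in cKO, 2 in the fit reported, was 1 with filterByExpr (0.316% of all genes), and 1 to 3 with 1 library left out (0.294% to 1.88%). The median log2 fold change of the members ran from -0.39 to 0.11 with 1 library left out. Summed H2B kept its direction under every alternative, from -0.93 to -0.41 with 1 library, or WT replicate 2 and a cKO library, left out. In the same fits summed H2A ran from -0.28 to 0.30, H3 from -0.42 to 0.25 and H4 from -0.59 to 0.19. Summed H2A was -0.0805 with DESeq2 without WT replicate 2 and -0.0134 with voomWithQualityWeights. The causes were not tested. With 2 libraries in a group, each left-out fit pools its spread with the other group.

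Same-numbered replicates had correlations of deviations from the group means of 0.114, -0.0941 and 0.211, so the numbers were not taken to pair the samples. With the replicate number as a block the median of the members was 0.10, the count higher was 1 (0.255% of all genes) and the count lower 1 (0.3% of all genes). In that fit summed H3 was 0.039, summed H2B -0.60 (unadjusted p = 0.0494, edgeR), Hist1h4n 0.85 and H2bc11 0.58.

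Single genes also turned direction. With DESeq2 without WT replicate 2 the log2 fold change was -0.16 for H3c6, -0.0599 for Hist1h4m, -0.12 for H4c3, -0.17 for H1f10, -0.13 for H2afz, 0.0032 for H3f3b, -0.0784 for H3f3a and -0.16 for Mki67. With voomWithQualityWeights it was -0.26 for H4c3, -0.0197 for H1f10, -0.091 for H2afz, -0.0046 for H3f3a and -0.0688 for Mki67, and with library size only -0.0193 for Hist1h4m and -0.053 for Slbp. With 1 library left out it ran from -0.26 to 0.0297 for H1f4, -1.01 to 0.90 for Hist1h4n, -0.28 to 0.0937 for H4c4, -0.15 to 1.24 for H3c6, -0.27 to 0.37 for Hist1h4m, -0.12 to 0.69 for H4c3, -0.52 to 0.0339 for H1f5, -0.41 to 0.14 for H1f3, -0.82 to 0.60 for H2bc11, -2.69 to 0.40 for H1f6, -0.17 to 0.83 for H1f10, -0.0788 to 0.11 for Slbp, -0.13 to 0.28 for H2afz, -0.54 to 0.0063 for H3f3b, -0.0755 to 0.43 for H3f3a, -0.16 to 0.52 for Mki67, -0.0020 to 0.20 for Top2a and -0.38 to 0.0198 for Il2ra. Without WT replicate 2 the 7 summed H2A copies were at -0.18 and H4c1 with H4c12 at -0.041. Genes under 3 counts in a group have a fitted fold change that depends on the prior count.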
